A study of Mus musculus with 2 samples.

Results

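Sox11, Sox4, Sox7, Sox17 and Sox18 are 5 of the 32285 genes in the count matrices of 2 droplet single-cell RNA libraries from chimeric mouse lungs. They were chosen by symbol with their measured UMI levels in these libraries already known (a UMI is a unique molecular identifier, 1 counted transcript). Every level and ratio given here is therefore a description and carries no test. The donor library holds sorted live CD45- cells that carried the red reporter tdTomato, which marks cells of the transplanted single-cell suspension. The recipient library holds the CD45- cells without the reporter, labelled as cells of the C57Bl hosts. Both come from the lungs of 3 chimeric mice, pooled 6 months after transplantation, so each group is 1 library with no replicate, and the animals cannot be told apart. Intervals in brackets are 95% intervals, and they reflect counting error alone. The donor strain, the ages of the mice, the preparation of the hosts and the promoter of the reporter are not in the labels, and no feature of the matrices counts the reporter itself, so the sort could not be checked from transcripts.

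Sox proteins are transcription factors that bind DNA through an HMG box. Sox7, Sox17 and Sox18 form the SoxF group, which acts in blood and lymphatic vessels: Sox17 is known for arterial identity, Sox18 for lymphatic development, and Sox7 for vessel formation alongside both. Sox4 and Sox11 belong to the SoxC group, best known for progenitor survival and differentiation in the embryo, with Sox4 also expressed in many adult tissues. The lung's capillary bed holds general capillary cells, which renew themselves and give rise to other capillary cells, and aerocytes, the large flat cells across which gas is exchanged.

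By the annotation of build GRCm38, Sox11 (ENSMUSG00000063632) lies on chromosome 12 from 27334264 to 27342574 and Sox4 (ENSMUSG00000076431) on chromosome 13 from 28948919 to 28953713, each with 1 exon on the minus strand. Sox7 (ENSMUSG00000063060) lies on the plus strand of chromosome 14 from 63943673 to 63950732, Sox17 (ENSMUSG00000025902) on the minus strand of chromosome 1 from 4490931 to 4497354, and Sox18 (ENSMUSG00000046470) on the minus strand of chromosome 2 from 181669836 to 181671640. Sox4 and Sox17 overlap an RNA gene on the opposite strand (Gm26735 and Gm37587), and reads of such partners cannot be told apart where counting ignores strand. The 250 bases before the RefSeq start were available for the SoxC genes. In general capillary cells their ratios of donor over recipient library went different ways. Sox7, Sox17 and Sox18 are named only. The SoxC windows are shown 5′ to 3′ on the minus strand of RefSeq build GRCm38.p6 at chr12:27342719-27342968 and chr13:28953700-28953949, with CCAAT, read on either strand, in capitals.
Sox11: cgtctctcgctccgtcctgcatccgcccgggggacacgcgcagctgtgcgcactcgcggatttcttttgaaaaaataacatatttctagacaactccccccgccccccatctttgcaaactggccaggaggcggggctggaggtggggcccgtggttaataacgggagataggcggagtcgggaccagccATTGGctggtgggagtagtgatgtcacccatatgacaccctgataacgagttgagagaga
Sox4: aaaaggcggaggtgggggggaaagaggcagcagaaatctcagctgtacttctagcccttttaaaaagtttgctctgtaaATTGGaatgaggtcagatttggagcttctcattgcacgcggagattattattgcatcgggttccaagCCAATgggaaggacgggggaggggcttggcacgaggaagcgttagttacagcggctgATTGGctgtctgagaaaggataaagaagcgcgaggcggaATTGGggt
CCAAT occurred once before Sox11 and 4 times before Sox4, and 33.8% of 32851 mouse promoter windows of this length hold it. The letters ACAAT, a core of Sox binding sites, occurred in neither window and in 27.7% of all windows on either strand. GGAA, the core of ETS sites, had 0 matches before Sox11 and 6 before Sox4, with 93.4% of windows holding 1 or more. These matches describe letters only, and no binding or chromatin was measured in this study.

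The matrices held 6319 donor-library barcodes with 37997269 UMIs and 3784 recipient-library barcodes with 26201315 UMIs. A total of 816 barcodes occurred in both. The donor copy was at least 5-fold smaller for 728 of them and the recipient copy for 48, and the smaller copy was left out, or both copies where they were within 5-fold. After an outlier filter, 4846 cells of the donor library (median 6232 UMIs) and 3290 cells of the recipient library (median 6475.5 UMIs) remained for use. Cells were typed by UMIs of marker genes, none of them a Sox gene. The gates held 2527 donor and 434 recipient general capillary cells, 1565 and 646 aerocytes, 178 and 95 venous cells, 52 and 27 arterial cells, and 5 and 75 lymphatic cells. Pericytes, the mural cells that wrap capillaries, numbered 33 and 490, alveolar fibroblasts 2 and 704, and alveolar type 1 cells, the flat epithelium, 37 and 178. A type with under 50 cells in a library is given no level there. Levels are CPM, the UMIs of a gene summed over the cells of a type and scaled to 1000000 UMIs, so a lower sum can come from fewer transcripts per cell or from fewer cells with any, and shares of cells are given beside the levels.

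The type names were checked against marker genes. Gpihbp1, the capillary anchor of lipoprotein lipase, was at 2357 CPM in donor and 2110 CPM in recipient general capillary cells, against 174 and 116 CPM in aerocytes, but it was also present in venous cells, at 1155 and 852 CPM. Car4 was at 3865 and 4053 CPM in aerocytes. Prox1 reached 443 CPM in recipient lymphatic cells. The donor cells of the arterial gate carried Gja5, a gap junction gene of arteries, at 244 CPM, but also Gpihbp1 at 2601 CPM and Plvap at 4080 CPM, as high as general capillary cells. They are called cells of the arterial gate here. Gja5 was also at 115 CPM in recipient alveolar fibroblasts, above the 51.4 CPM of recipient general capillary cells. Ptprc, the leukocyte gene behind CD45, had at most 6 UMIs in any of the capillary and vessel types.

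Sox11 was high in donor general capillary, venous and arterial-gate cells and in pericytes, a type given a level in the recipient library only. It stood at 256 CPM (247 to 264, 3679 UMIs) in donor general capillary cells, against 19.4 CPM (14.5 to 25.5, 51 UMIs) in recipient general capillary cells, a ratio of 13.2-fold (9.99 to 17.7). A Sox11 UMI was found in 55.2% (53.3 to 57.2) of these donor cells and in 6.22% (4.14 to 8.92) of the recipient cells, and the intervals lie far apart. With every cell thinned to 2000 UMIs, the shares were 34.5% (32.7 to 36.4) and 1.62% (0.652 to 3.30), and the log2 ratio was 4.85 in place of 3.72. The UMIs were spread over many cells. Of donor general capillary cells, 44.8% had 0 Sox11 UMIs, 20.3% had 1, 13.4% had 2 and 7.36% had 5 or more. In the recipient library 93.8% had 0, and the 2 cells of the cycling gate held 7 of the 51 UMIs.

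Venous cells showed the same direction. Sox11 was at 152 CPM (133 to 171) in 178 donor venous cells and at 8.51 CPM (3.42 to 17.5, 7 UMIs) in 95 recipient venous cells, 17.8-fold apart (8.52 to 44.7). The 52 donor cells of the arterial gate had 187 CPM (144 to 239), an interval that overlapped the donor venous one, and the 27 recipient ones held 1 Sox11 UMI in all. In aerocytes both libraries were low, with 7.27 CPM (5.94 to 8.81) in the donor library and 5.57 CPM (3.70 to 8.05) in the recipient library. Their ratio of 1.31 (0.853 to 2.06), a log2 ratio of 0.38, included equality, but this depended on which cells were kept. Under 4 of 7 alternatives with an interval, donor aerocytes were higher, with log2 ratios of 1.35 (0.51 to 2.31) without shared barcodes, 1.08 (0.19 to 2.10) with stricter gates, 1.87 (0.75 to 3.23) without the highest Scrublet doublet scores and 3.42 (0.86 to 8.76) without cells with a pericyte marker UMI. Within the donor library aerocytes were 35.1-fold (28.9 to 43.1) below general capillary cells, a log2 ratio of -5.14 that was -5.81 in cells without a pericyte marker UMI. Recipient aerocytes were 3.48-fold lower (2.16 to 5.74) than recipient general capillary cells, a log2 ratio of -1.80 that was -5.38 (-10.8 to -2.70) in cells without a pericyte marker UMI. The 75 recipient lymphatic cells had 0 Sox11 UMIs, and a count of 0 allows up to 6.82 CPM.

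**Figure D1:**
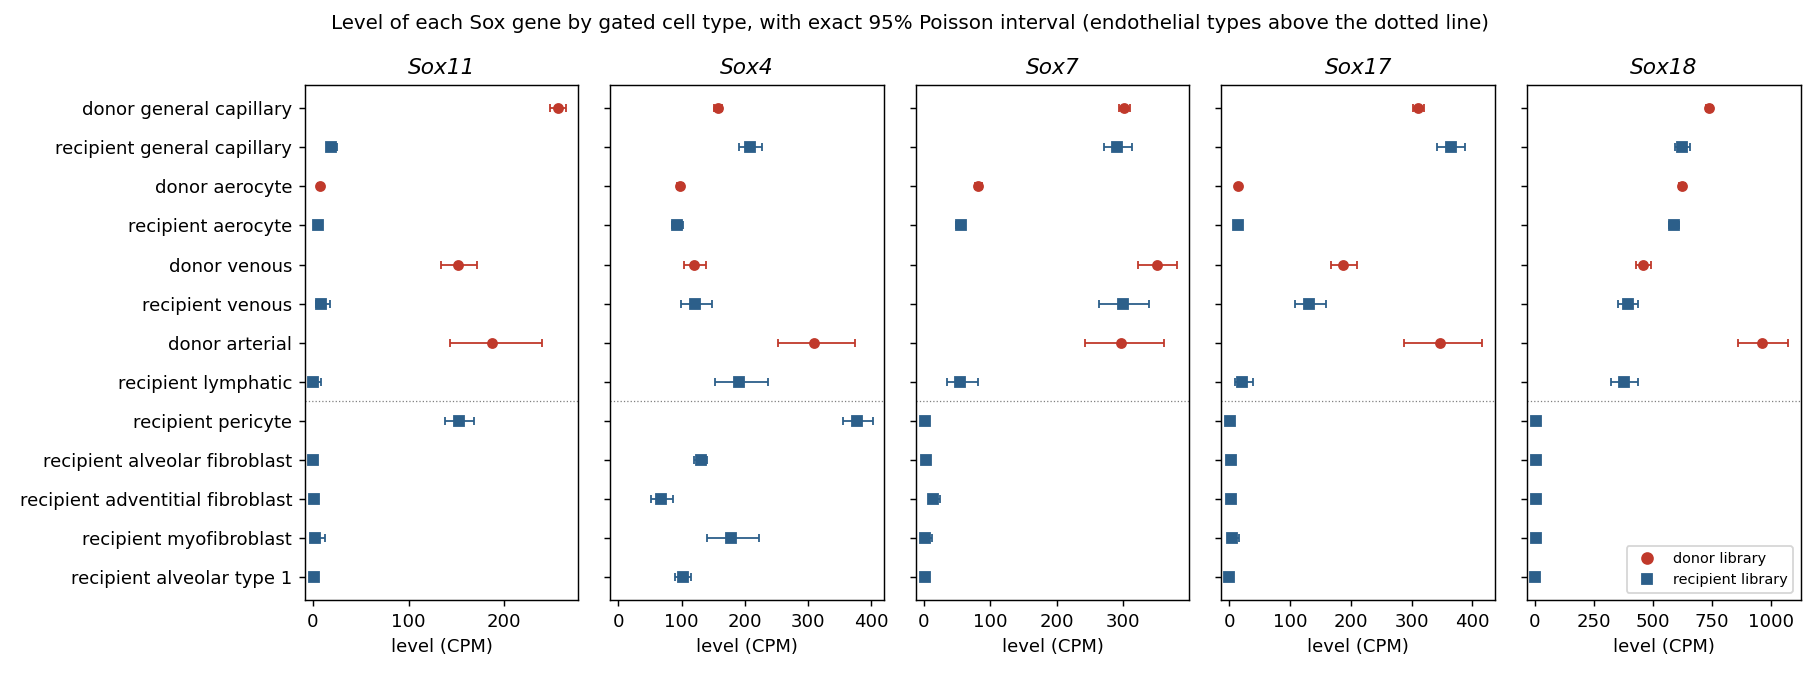
Level of each Sox gene in CPM (linear axis, own scale per gene) by gated type, donor library as red circles and recipient library as blue squares, with exact Poisson intervals. Sox11 is high in donor general capillary, venous and arterial-gate cells and in recipient pericytes, the SoxF genes are near 0 in every type below the dotted line, and Sox4 is present in every type.

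Outside the endothelium, Sox11 was at 152 CPM (138 to 168) in recipient pericytes, where 38.8% (34.4 to 43.2) of 490 cells had a UMI. The 33 donor pericytes held 21 Sox11 UMIs in 10 cells. Alveolar fibroblasts of the recipient library had 0 UMIs in 704 cells, which by the limit of 3 counts allows up to 0.426% of cells with a UMI, and alveolar type 1 cells had 1.52 CPM (0.415 to 3.90). With cells thinned to 2000 UMIs, 0 of these fibroblasts and 0 of these epithelial cells had a Sox11 UMI, beside 1.62% of recipient general capillary cells. Their median depths before thinning were 6797, 15189 and 5630 UMIs. The whole-class comparison pointed opposite ways in the 2 libraries. Endothelial cells were at 134 CPM and mesenchymal and epithelial cells together at 26.7 CPM in the donor library, 4.997-fold higher (3.26 to 8.08) in the endothelium. They were at 11.4 and 29.7 CPM in the recipient library, 2.60-fold lower (2.11 to 3.24) in the endothelium. With every shared barcode left out, the log2 ratios of 2.32 and -1.38 were 1.58 and -2.61.

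Pericyte transcripts moved with part of the Sox11 counts. The 5 pericyte markers (Cox4i2, Higd1b, Notch3, Pdzd2 and Gucy1a1) were all detected in every capillary and venous group. Their summed level was 142 CPM in donor and 368 CPM in recipient general capillary cells, and 132 and 689 CPM in aerocytes, against 17589 CPM in recipient pericytes. Recipient aerocytes thus held 3.92% of the pericyte level of these markers and 3.66% of the pericyte level of Sox11. Of their 28 Sox11 UMIs, 27 lay in the 320 cells with a pericyte marker UMI, and the 326 cells without one held 1. Recipient general capillary cells held 2.09% of the marker level but 12.8% of the Sox11 level, and their 169 cells without a pericyte marker UMI had 18.1 CPM. In donor general capillary cells the 1588 cells without a pericyte marker UMI had 260.1 CPM of Sox11, against 256 CPM over all cells of the type. Among aerocytes without such a UMI, Sox11 was at 4.62 CPM in the donor library and at 0.432 CPM in the recipient library. The Sox17 ratio between the same aerocytes was 1.57 (0.64 to 2.67) on the log2 scale. Leaving these cells out was chosen after seeing the data. Other marker lists were also higher in the recipient library in both capillary types, except the alveolar type 1 and ciliated sums. In general capillary cells, donor and recipient sums were 36.5 and 92.1 CPM for alveolar type 2 and 27.2 and 56.0 CPM for myofibroblast markers. Smooth muscle markers were at 7.44 and 27.4 CPM and lymphatic markers at 369 and 601 CPM. In aerocytes the same sums were 26.4 and 40.4, 14.3 and 48.4, 34.8 and 45.4, and 337 and 353 CPM. Hhip had 0 UMIs in donor aerocytes, Fxyd6 in donor general capillary cells and Reln in recipient aerocytes. The 5 alveolar fibroblast markers summed to 79.4 CPM in donor and 196 CPM in recipient general capillary cells and to 22.0 and 177 CPM in aerocytes, with all 5 detected in each group. The 5 adventitial fibroblast markers summed to 1.32 and 24.4 CPM and to 0.979 and 24.1 CPM, and the 3 markers of club cells, a secretory airway epithelium, to 3.61 and 124 CPM and to 3.22 and 96.3 CPM, again with all detected. The 5 alveolar type 1 markers summed to 469.6 CPM in donor and 469.4 CPM in recipient general capillary cells. In aerocytes they summed to 2328 and 2313 CPM. Most of these sums was Hopx, at 427 and 386 CPM in general capillary cells and at 2287 and 2224 CPM in aerocytes. Ager alone was higher in the recipient library, at 25.9 and 61.7 CPM in general capillary cells and at 22.7 and 63.1 CPM in aerocytes. The 4 markers of ciliated cells summed to 42.7 and 40.7 CPM and to 416 and 383 CPM. All 4 were detected in both donor types. Dynlrb2 had 0 UMIs in both recipient types and Ccdc153 had 0 in recipient aerocytes. The part of any of these transcripts in the Sox values was not tested.

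Sox4, the other SoxC gene, was broad and did not follow Sox11 in the donor cells. It was at 157 CPM (151 to 164) in donor general capillary cells and at 209 CPM (192 to 227) in recipient ones, 1.33-fold lower (1.21 to 1.46) in the donor library. Aerocytes had 97.4 CPM (92.4 to 103) in the donor library and 93.1 CPM (84.9 to 102) in the recipient library, and venous cells had 120.3 CPM (104 to 138) and 122 CPM (98.9 to 148). Both ratios included equality. In the recipient library Sox4 was highest in pericytes, at 378 CPM (354 to 402) with a UMI in 72.4% of cells, and lowest in adventitial fibroblasts at 67.2 CPM (51.6 to 85.9). The adventitial interval touched that of aerocytes. Between these ends, general capillary, lymphatic and myofibroblast levels (178 to 209 CPM) had overlapping neighbouring intervals, as did alveolar fibroblasts, venous cells, alveolar type 1 cells and aerocytes (93.1 to 129.9 CPM). Within the donor library, cells of the arterial gate stood above general capillary cells, at 309 CPM (252 to 374). The endothelium as a whole had less Sox4 than the mesenchymal and epithelial cells, 1.52-fold lower (1.28 to 1.78) in the donor library and 1.21-fold lower (1.13 to 1.29) in the recipient library.

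Among the SoxF genes, Sox17 split the capillary bed most widely. Aerocytes were at 14.9 CPM (12.96 to 17.0) and general capillary cells at 311 CPM (302 to 320) in the donor library, and at 14.9 CPM (11.7 to 18.7) and 364 CPM (342 to 388) in the recipient library. The aerocyte level was 20.9-fold lower (18.2 to 24.1) in the donor library and 24.4-fold lower (19.3 to 31.3) in the recipient library. In cells without a pericyte marker UMI, the recipient log2 ratio was -6.44 in place of -4.61. A few cells carried much of the recipient aerocyte level, since 4 of 646 cells held 45 of the 75 UMIs, with up to 15 in a cell, while in the donor library 5 of 1565 cells held 40 of 213. A Sox17 UMI was present in 9.33% of donor and 4.64% of recipient aerocytes, against 64.7% and 69.6% of general capillary cells. After thinning to 2000 UMIs 31 of 1550 donor aerocytes (1.36% to 2.83%) and 2.51% of recipient aerocytes (1.44% to 4.04%) had one, so the order of the unthinned shares did not hold at equal depth. In the recipient library, 0 of 178 alveolar type 1 cells and 0.612% of pericytes had a Sox17 UMI. Lymphatic cells were also low, at 20.5 CPM (9.35 to 38.8), where all 9 UMIs came from 2 of 75 cells. Venous cells were intermediate, at 188 CPM (167 to 210) in donor cells and 131 CPM (108 to 158) in recipient cells, 1.43-fold higher (1.14 to 1.80). That log2 ratio of 0.52 was 0.13 (-0.45 to 0.73) after thinning and 0.45 (-0.12 to 1.06) without cells with a pericyte marker UMI, and both intervals included equality. General capillary cells went the other way, with donor cells 1.17-fold lower (1.09 to 1.26). In the donor library the arterial gate led with 347 CPM (287 to 416), an interval that overlapped that of general capillary cells.

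Sox7 had a shallower step between the capillary types. Aerocytes were at 81.8 CPM (77.2 to 86.7) and general capillary cells at 302 CPM (293 to 311) in the donor library, 3.68-fold lower (3.45 to 3.93). In the recipient library they were at 55.1 CPM (48.8 to 62.0) and 291 CPM (271 to 312), 5.28-fold lower (4.59 to 6.08). A Sox7 UMI was found in 43.3% of donor and 30.5% of recipient aerocytes (medians of 8880 and 7634.5 UMIs) and in 71.0% and 70.0% of general capillary cells (medians of 5357 and 5630), against 1.02% of recipient pericytes (median 5024). Thinned to 2000 UMIs, the shares were 13.1% and 9.40% in aerocytes and 42.2% and 36.5% in general capillary cells. Between the libraries, general capillary cells had a ratio of 1.04 (0.960 to 1.12), which included equality, although the log2 ratio after thinning was 0.24 (0.03 to 0.44). Donor aerocytes were 1.485-fold higher (1.30 to 1.70). That log2 ratio of 0.57 was 0.25 in aerocytes without a pericyte marker UMI, with an interval that reached equality. Sox7 was the SoxF gene with the highest venous rank, at 351 CPM (323 to 380) in donor and 299 CPM (263 to 339) in recipient venous cells. In recipient adventitial fibroblasts Sox7 was at 13.9 CPM (7.38 to 23.7), with 1 UMI in each of 13 of 84 cells. That interval lay above those of alveolar fibroblasts, pericytes and alveolar type 1 cells and overlapped that of the 68 myofibroblasts, which held 1 Sox7 UMI. Of these fibroblasts, 58 of 84 carried a barcode also present in the donor library. Sox18, with more UMIs in endothelium, was at 5.33 CPM (1.73 to 12.4) in the same fibroblasts.

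Sox18 had the most UMIs of the 5 genes in every endothelial type given a level (UMI counts are not divided by gene length) and the narrowest range across these types as a fold of highest over lowest. It was at 739 CPM (725 to 753) in donor and 626 CPM (596 to 657) in recipient general capillary cells, 1.18-fold higher (1.12 to 1.24). In aerocytes it was at 624 CPM (611 to 637) and 589.6 CPM (569 to 611), 1.06-fold higher (1.02 to 1.10), and under 5 of 7 alternatives the interval of this ratio included equality. The aerocyte and general capillary intervals overlapped in the recipient library and lay apart in the donor library. A Sox18 UMI was seen in 94.8% of donor and 93.2% of recipient aerocytes and in 91.9% and 84.3% of general capillary cells, against 1.12% of recipient alveolar type 1 cells and 1.43% of recipient pericytes. After thinning, donor aerocytes were below donor general capillary cells, at 66.1% (63.6 to 68.4) and 72.1% (70.3 to 73.8). The recipient shares were then 63.5% (59.6 to 67.2) and 63.7% (59.0 to 68.3), with overlapping intervals. The order of the unthinned shares thus did not hold at equal depth. Venous cells were lower, at 459 CPM (427 to 493) in donor cells and 394 CPM (352 to 439) in recipient cells, and the recipient venous interval overlapped that of lymphatic cells at 377 CPM (322 to 439). The arterial gate of the donor library led with 962 CPM (860.3 to 1073). Over the whole class, Sox18 in endothelial cells was 87.3-fold (40.1 to 238) above mesenchymal and epithelial cells in the donor library and 265-fold (185 to 393) above them in the recipient library. Sox17 was 32.9-fold (12.8 to 121) and 108-fold (68.2 to 183) higher in the same comparisons. With the mean of per-cell CPM, the donor log2 ratios of 6.45 for Sox18 and 5.04 for Sox17 were 4.86 and 3.11. Sox7 was 158-fold higher (28.3 to 6223) in the donor library, on 1 UMI in 95 mesenchymal and epithelial cells, and 39.0-fold (29.7 to 52.2) higher in the recipient library.

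**Figure D2:**
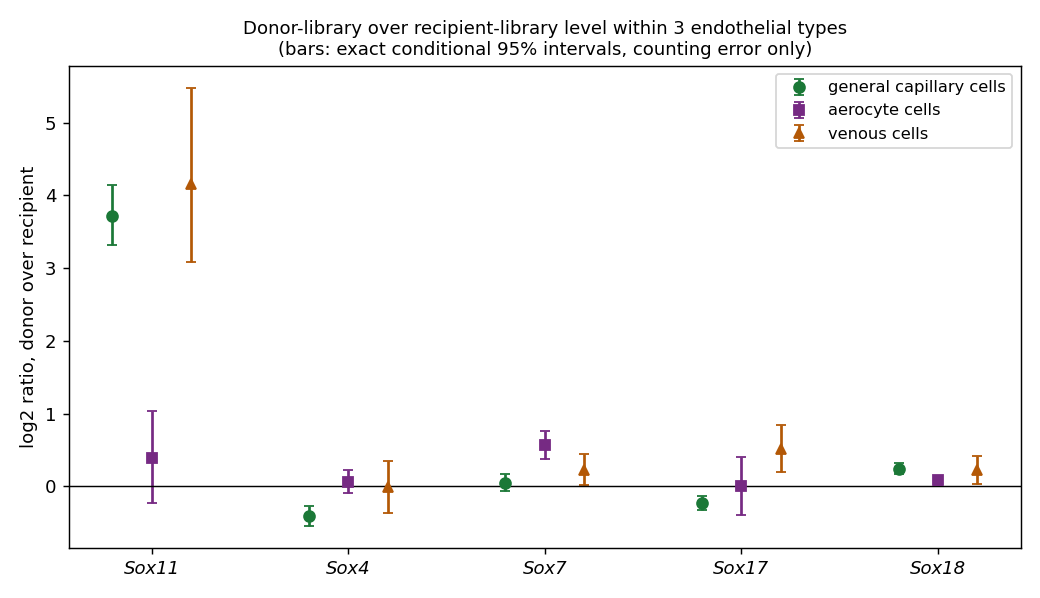
Log2 ratio of the donor-library over the recipient-library level (y axis) for each Sox gene in general capillary cells, aerocytes and venous cells, with exact conditional intervals. Sox11 lies at 3.72 in general capillary cells and 4.15 in venous cells, and every other point lies between -0.41 and 0.57.

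The 3 SoxF genes together made up 1351 CPM in donor and 1281 CPM in recipient general capillary cells, 721 and 659.6 CPM in aerocytes, and 998 and 824 CPM in venous cells. In makeup, aerocytes stood apart from general capillary and venous cells in both libraries. Sox18 supplied 86.6% of SoxF UMIs in donor and 89.4% in recipient aerocytes, with Sox17 at 2.07% and 2.26%. In general capillary cells Sox18 supplied 54.7% and 48.9% and Sox17 23.0% and 28.4%. Venous cells had the largest Sox7 share of the endothelial types, 35.1% and 36.3%. Recipient lymphatic cells resembled aerocytes in these shares, with 83.4% Sox18 and 4.52% Sox17. The summed level of the 3 genes in recipient pericytes was 5.81 CPM.

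**Figure D3:**
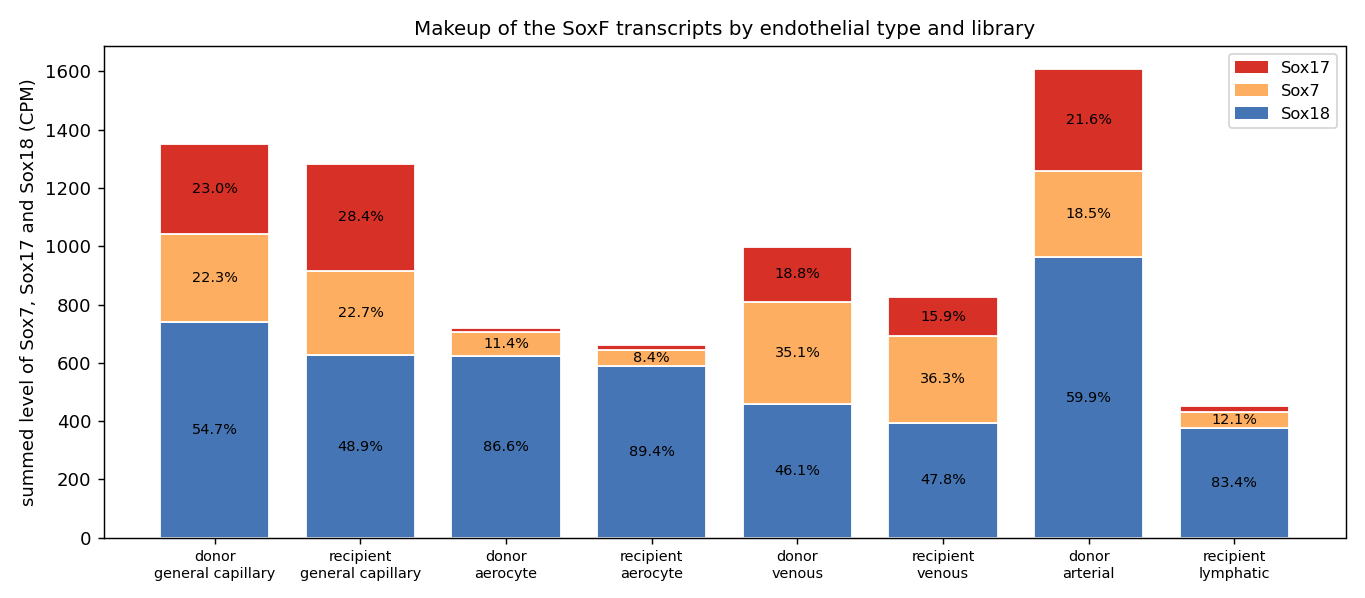
Stacked levels of Sox18, Sox7 and Sox17 in CPM (y axis) by endothelial type and library, with each gene's share of the SoxF UMIs printed inside its block where it exceeds 8%. Aerocytes and lymphatic cells are mostly Sox18, and venous cells carry the largest Sox7 share.

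**Figure D4:**
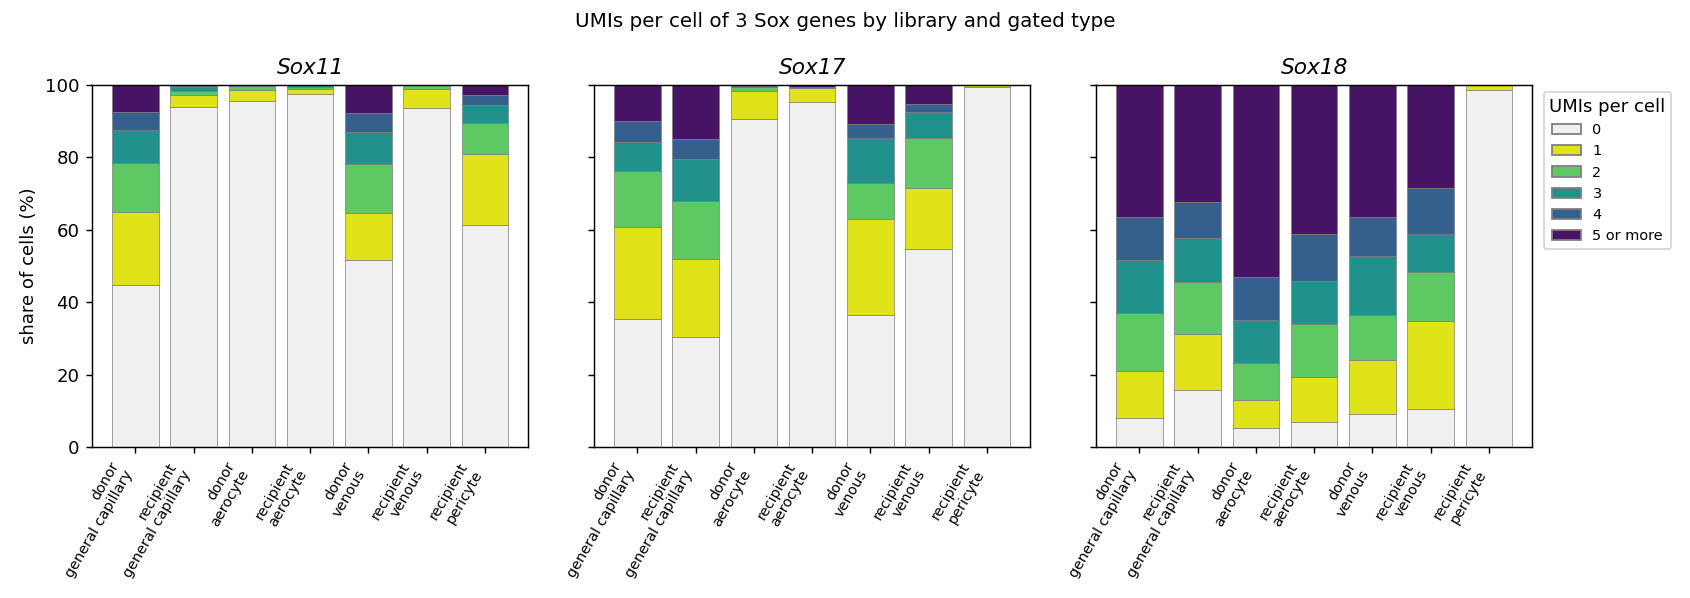
Share of cells (y axis, percent) by number of UMIs of Sox11, Sox17 and Sox18 for each library and type. Sox11 is at 0 UMIs in 44.8% of donor and 93.8% of recipient general capillary cells, and Sox17 is at 0 in 90.7% of donor and 95.4% of recipient aerocytes.

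Of the wider Sox family, 18 genes were counted and 8 had at least 20 UMIs over both libraries in general capillary cells. A gene was called higher or lower when the ratio reached 2-fold and its interval left out equality. In general capillary cells 1 of the 8, Sox11, was higher in the donor library and 0 were lower, against 1.73% of all 12197 measured genes called higher and 5.02% called lower, a contrast with which Sox11 was chosen. The family's median log2 ratio was 0.15 and that of all genes -0.01. In aerocytes 0 of 8 were higher, against 0.794% of all genes, and 1 was lower, against 4.03%. That gene was Sox5, at 2.59 CPM in donor and 12.1 CPM in recipient aerocytes, and at 275 CPM in recipient pericytes, a type whose markers were also higher in recipient aerocytes. The part of pericyte RNA in that value was not tested. Aerocytes against general capillary cells gave 1 higher and 5 lower of 9 in the donor library, where 8.18% and 17.3% of all genes were called, and 0 higher and 4 lower of 7 in the recipient library, where the shares were 8.06% and 12.9%. Sox7, Sox11 and Sox17 were lower in aerocytes in both libraries, Sox5 and Sox12 in the donor library and Sox4 in the recipient library, and the 1 higher gene was Sox9, with 17 UMIs in donor aerocytes and 3 in donor general capillary cells. Sox13, which like Sox5 belongs to the SoxD group, was at 100.001 CPM in donor and 72.7 CPM in recipient general capillary cells and at 72.5 and 66.1 CPM in aerocytes. Sox9 was at 93.3 CPM in recipient myofibroblasts and at 0 UMIs in recipient general capillary cells.

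Genes linked to SoxF factors in blood vessels, a list of 21, were mostly lower in aerocytes than in general capillary cells. In the donor library 0 of 19 measured genes were higher and 13 lower, against 8.18% and 17.3% of all genes, with a median log2 ratio of -1.60 against -0.10 for all genes. In the recipient library 1 was higher and 12 lower, against 8.06% and 12.9%, with a median of -1.30 against -0.03. The arterial gap junction gene Gja4 was at 16.02 CPM in donor aerocytes and 599.9 CPM in donor general capillary cells, and at 9.55 and 481 CPM in the recipient library. The Notch target Hey1 was at 7.48 and 272 CPM in the donor library and at 1.99 and 211 CPM in the recipient library. The Notch ligand Dll4 was at 135 and 364 CPM, and at 121 and 243 CPM. The ephrin ligand Efnb2 was at 165 and 452 CPM, and at 132 and 394 CPM. Vcam1, an adhesion molecule, was at 5.46 and 31.4 CPM, and at 14.5 and 172 CPM. Cldn5, a tight junction gene named after its values were seen, was at 10172.3 CPM in donor aerocytes and 5744 CPM in donor general capillary cells. Of the listed genes, Gja4 and Gja5 belong to the arterial gate and Hey1 to that of a general capillary state. Cldn5 and Cdh5 belong to the endothelial class gate and Prox1 to the lymphatic gate.

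Between the libraries, 0 of 19 were higher and 3 lower in donor general capillary cells, against 1.73% and 5.02% of all genes, with a median log2 ratio of 0.17 against -0.01. Vcam1 was at 31.4 CPM in donor and 172 CPM in recipient cells. Nrp2, a semaphorin receptor, was at 12.5 and 48.3 CPM, and the laminin gene Lama4 at 9.38 and 29.3 CPM. In the same cells the pericyte markers were at 142 and 368 CPM, the alveolar fibroblast markers at 79.4 and 196 CPM, and the matrix gene Mgp, which reached 13381 CPM in recipient alveolar fibroblasts, at 23.3 and 262 CPM. Their part in these values was not tested. In aerocytes 1 was higher and 3 were lower, against 0.794% and 4.03% of all genes, with a median of -0.08 against -0.03. The higher gene was Hey1, at 7.48 CPM in donor and 1.99 CPM in recipient aerocytes, and the lower ones were again Vcam1, Nrp2 and Lama4.

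SoxC-linked genes, a list of 16, gave 1 higher and 1 lower of 11 measured in donor over recipient general capillary cells, against 1.73% and 5.02% of all genes, with a median log2 ratio of 0.08 against -0.01. Cd24a, a surface glycoprotein, was at 180.4 CPM in donor and 43.4 CPM in recipient cells, 4.16-fold higher, and Plxnb1, a plexin receptor gene, was at 1.18 and 4.19 CPM on 17 and 11 UMIs. Named after their values were seen, Tead2, a Hippo pathway factor, was at 22.9 and 20.9 CPM, the tubulin-binding gene Stmn1 at 412 and 389 CPM, and Marcksl1 at 97.5 and 78.4 CPM. In donor over recipient aerocytes 0 of 11 were higher and 1 was lower, against 0.794% and 4.03%, with a median of 0.07 against -0.03. Between the capillary types, 3 of 12 were higher and 6 lower in donor aerocytes and 3 of 11 higher and 5 lower in recipient aerocytes. The shares of all genes were 8.18% and 17.3%, and 8.06% and 12.9%, and the list medians were -1.07 and -0.31 against -0.10 and -0.03. Marcksl1 was at 3.64 CPM in donor aerocytes and 97.5 CPM in donor general capillary cells, whereas Nrp1, a co-receptor of VEGF and semaphorins, was at 1758 and 555 CPM.

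Of 40 endothelial transcription factors, 37 were measured in general capillary cells, where 1 was higher and 6 were lower in the donor library, against 1.73% and 5.02% of all genes, with a median log2 ratio of 0.07 against -0.01. Lyl1, a partner of blood and vessel factors, was at 17.7 CPM in donor and 7.99 CPM in recipient cells. Nr2f2, a venous and mesenchymal regulator, was at 11.2 and 43.4 CPM, and Tbx2 at 21.3 and 47.2 CPM. The pericyte and fibroblast markers given above were also lower in these donor cells, and their part was not tested. In aerocytes 1 was higher and 2 lower of 34, against 0.794% and 4.03%, with a median of 0.04 against -0.03. Aerocytes against general capillary cells gave 5 higher and 11 lower of 37 in the donor library and 6 higher and 13 lower of 36 in the recipient library, where 8.18% and 17.3%, and 8.06% and 12.9%, of all genes were called and the list medians were -0.46 and -0.38 against -0.10 and -0.03. Tbx2 was at 761 CPM in donor aerocytes and 815 CPM in recipient aerocytes, but it is an aerocyte gate gene. Prdm1 stood at 140.0 CPM in donor aerocytes and 16.3 CPM in donor general capillary cells, and Mecom at 2.31 and 55.9 CPM.

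Within general capillary cells, states were gated by UMIs of their own markers and compared with the remaining cells of the type in the same library. Cells with at least 3 Glp1r UMIs (Glp1r encodes a peptide hormone receptor) were 47.2% of donor and 61.3% of recipient general capillary cells. Sox11 was at 328 CPM in these donor cells and 178 CPM in the remaining donor cells, a log2 ratio of 0.88 (0.78 to 0.98). In the recipient library it was at 21.1 and 16.5 CPM, with an interval that included equality. Sox17 was higher in the state in both libraries, at 343 and 277 CPM in the donor library and 410.0 and 286 CPM in the recipient library. Sox18 was lower in both, at 661 and 823 CPM and at 601 and 669 CPM. Sox4 was lower in both, with log2 ratios of -0.34 (-0.46 to -0.22) and -0.29 (-0.54 to -0.04). The recipient intervals of Sox18 and Sox4 included equality after thinning and without shared barcodes.

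The arterial-leaning state (at least 5 UMIs of Hey1 and Sema3g) held 31.9% of donor and 23.5% of recipient general capillary cells and differed the other way. Sox18 was at 926 CPM in the state and 634 CPM in the remaining donor cells, and at 829 and 543 CPM in the recipient library, log2 ratios of 0.55 (0.49 to 0.60) and 0.61 (0.47 to 0.76). Sox17, the SoxF gene known for arteries, was lower in the state, at 257 and 341 CPM and at 299.8 and 391 CPM. Sox4 was higher in both libraries, at 185 and 142 CPM and at 249 and 192 CPM. Sox11 was lower, at 201 and 286 CPM in the donor library and at 3.93 and 25.8 CPM in the recipient library, where the state held 3 UMIs. After thinning, the recipient intervals of Sox17, Sox4 and Sox11 included equality.

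In the tip-like state (at least 2 UMIs of Esm1 and Inhbb, genes of sprouting vessel tips), Sox17 was lower in both libraries. It was at 167 CPM in the state and 337 CPM in the remaining donor cells, and at 195 and 388 CPM in the recipient library, log2 ratios of -1.01 (-1.17 to -0.85) and -0.99 (-1.38 to -0.63). Sox18 was higher, at 940.0 and 703 CPM and at 789.9 and 602 CPM, though the recipient interval included equality after thinning. Sox11 was at 139 and 277 CPM in the donor library, and the recipient state of 51 cells held 1 Sox11 UMI. Sox7 had log2 ratios between -0.14 and 0.23 in the 4 general capillary states with a ratio. Its donor intervals excluded equality in the Glp1r state (0.15 to 0.32) and in the tip-like state (-0.27 to -0.02). The donor tip-like interval of Sox7 included equality after thinning and with no cell filter. In interferon-active cells (at least 5 UMIs of Ifit1, Ifit3, Rsad2, Cxcl10 and Isg15) Sox17 had log2 ratios of 0.15 (0.05 to 0.24) for donor cells and -0.29 (-0.53 to -0.05) for recipient cells, and Sox18 of -0.15 (-0.22 to -0.09) and 0.27 (0.11 to 0.43). Both recipient intervals included equality after thinning. The donor Sox7 ratio in this state went from 0.07 (-0.03 to 0.17) to 0.26 (0.09 to 0.43) after thinning. Cycling cells numbered 2 in each library and are given no ratio. The donor Glp1r cells had a median of 5714.5 UMIs and the remaining donor cells 5024, and in the other states with a ratio the state cells were also the deeper ones, except in the recipient tip-like state (5439 and 5642).

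Among aerocytes, the Il1a state (at least 2 UMIs of the cytokine gene Il1a) was 21.0% of donor and 15.2% of recipient cells, and the state with 3 or more UMIs of Serpina3k and Serpina3m was 27.3% and 24.6%. Sox18 had log2 ratios between -0.07 and 0.05 in both states and libraries, and each interval included equality. Without shared barcodes, recipient Sox18 in the Serpina3k and Serpina3m state was at -0.13 (-0.25 to -0.01). Sox4 was lower in the Serpina3k and Serpina3m state, at 80.8 and 105 CPM in the donor library and at 71.7 and 101 CPM in the recipient library, but both intervals included equality after thinning. Sox17 in this state was at 12.8 and 15.8 CPM in the donor library, with an interval that included equality. In the recipient library its log2 ratio was -2.69 (-4.60 to -1.27), on 4 UMIs in the state. In the Il1a state Sox17 had log2 ratios of 0.07 (-0.40 to 0.52) for donor and -1.97 (-3.88 to -0.55) for recipient cells. The recipient Il1a state also held 4 Sox17 UMIs. Each recipient Sox17 interval included equality after thinning. With stricter gates, the Il1a interval of Sox17 excluded equality for donor cells and included it for recipient cells.

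**Figure D5:**
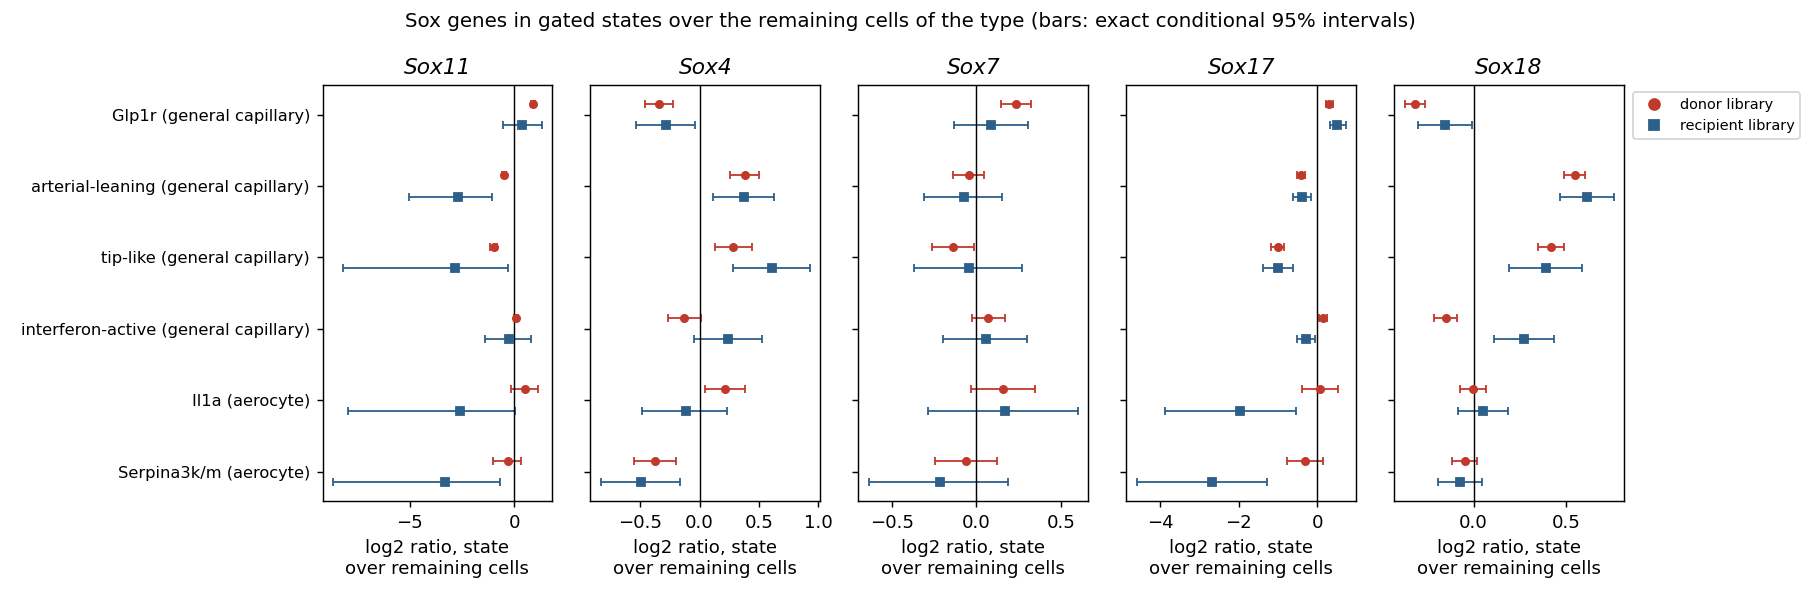
Log2 ratio of each Sox gene in a gated state over the remaining cells of its type (x axis, own scale per gene), donor library as red circles and recipient library as blue squares, with exact conditional intervals. Sox17 and Sox18 lie on opposite sides of 0 in the Glp1r, arterial-leaning and tip-like states of both libraries. Sox7 lies between -0.14 and 0.23 in the general capillary states.

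Donor general capillary cells thinned to 2000 UMIs were split by the presence of a Sox11 UMI. Of 865 donor general capillary cells with a Sox11 UMI, 44.6% (41.3 to 48.0) had a Sox7 UMI, against 41.0% (38.6 to 43.4) of 1640 cells without one. The shares with a Sox17 UMI were 41.0% and 37.7%, with a Sox18 UMI 69.8% and 73.3%, and with a Sox4 UMI 19.2% and 22.7%, and the intervals of each pair overlapped. Levels are given beside the shares, and their ratio intervals treat each UMI as independent. Sox4 UMIs were clumped, since before thinning 93 of 2527 donor general capillary cells held 687 of its 2264 UMIs. Sox4 was at 123 CPM in cells with and 173 CPM in cells without a Sox11 UMI, a log2 ratio of -0.50 (-0.74 to -0.27), and Sox18 at 668 and 791 CPM, a ratio of -0.24 (-0.35 to -0.14). Sox17 was at 332 and 290 CPM, a ratio of 0.20 (0.05 to 0.35), and the Sox7 interval (-0.04 to 0.27) included equality. Other genes differed more between donor general capillary cells with and without a Sox11 UMI, and the ones named here were picked for their ratio after the values were seen. Atp13a3, an ATPase, was at 10.4 CPM in cells with and 75.3 CPM in cells without a Sox11 UMI. Mgll, a lipase of monoglycerides, was at 31.8 and 117 CPM, Ltbp4, a matrix protein that binds latent TGF-beta, at 40.5 and 136 CPM, and Cxcl12, a chemokine, at 294 and 722 CPM. In the other direction the ratios were smaller, with Adamts9, a metalloprotease, at 96.0 and 54.0 CPM and Ptgs1, a prostaglandin synthase, at 86.1 and 48.8 CPM. The capillary genes Plvap (3588 and 3912 CPM) and Gpihbp1 (2371 and 2448 CPM) were nearly level.

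The genes whose levels most resembled each member were ranked by Pearson r of log2(CPM + 10) over 13 profiles of type and library, among 10163 genes with at least 20 CPM in a profile. The profiles share 2 libraries and differ in depth, and r is a description. The ranking depended on its settings: with a pseudocount of 1, 1 to 3 of the 5 genes named for each member stayed among its first 5, and with a minimum of 100 CPM in a profile 1 to 5 did. For Sox17 they were the state gene Glp1r (r = 0.98), the vasoconstrictor peptide gene Edn1 (0.98), Acer2, Apol10b and Inpp5d. For Sox18 they were the gate genes Egfl7 (0.99) and Cdh5 (0.99), with Ccm2l, Gimap1 and the sphingosine phosphate receptor S1pr1. For Sox7 they were Klf3 (0.99), Chst11, Acer2, Tgtp2 and Tmem44. Sox11 had weaker matches, led by the Notch-regulated gene Nrarp (0.87), then Tmem184b, Pelo, Itga1 and Pttg1. Pttg1 was at 85.8 CPM in donor and 18.3 CPM in recipient general capillary cells, whereas Nrarp was at 119.9 and 92.5 CPM and at 299.8 CPM in recipient pericytes. For Sox4 they were Rbm48 (0.94), Phf12, Ubxn7, Fam118a and Nipbl. Among the members, Sox7 resembled Sox17 (0.94) and Sox18 (0.91), Sox17 resembled Sox18 less (0.80), and Sox11 was closest to Sox17 (0.62) and Sox4 (0.56).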

How the data were processed

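Per the labels' protocols, single cells of 3 pooled chimeric lungs were sorted into CD45- fractions with and without tdTomato, and 1 library of the 10x Genomics system was made from each. The deposited matrices hold whole UMI counts for each gene and barcode, made by the authors on the mm10 genome with Cell Ranger 4.0.0, per the file headers and the submitters' processing notes. Another version is given in the labels' protocol. The strand setting of the counting is not given in the sources used here. The members, gene lists, gates and state minimums were chosen with earlier results of these data known.

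Barcodes beyond 3 scaled median absolute deviations in genes, UMIs or mitochondrial share of their library were left out, which kept 4987 and 3311. Of these, 141 and 21 were then left out as copies of a barcode in the other library. Scrublet's automatic threshold (scanpy 1.11.5) marked 2 and 7 barcodes, a failed call, so no doublet call was used in the main values. Leaving out the highest scores is an alternative. A class needed 4 marker UMIs and 80% of the class marker UMIs. Venous, arterial and lymphatic types needed 5 UMIs from 3 genes, capillary types 3 UMIs and 80% of the capillary marker UMIs, and mesenchymal and epithelial types 3 UMIs and 70%. Venous cells also needed 3 UMIs outside Vwf and Prss23. These limits were set after marker counts had been seen.

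With 1 library per group no test was run. Levels carry exact Poisson intervals, shares exact Clopper-Pearson intervals, and ratios exact conditional intervals (scipy 1.17.1, numpy 2.4.6, pandas 2.3.3, Python 3.11.15). A count of 0 is given with the limit of 3 counts. The code was tested on simulated data. Named genes are the 5 members, the 5 genes most like each, and list genes past 2-fold with an interval that excludes equality and at least 20 UMIs in both groups together, up to 10 a comparison by UMI count. Other genes are said to be named after their values were seen, and gate genes are named as label checks. Alternatives were other treatments of shared barcodes, stricter gates, no cell filter, Scrublet scores, the mean of per-cell CPM, thinning, and other limits for lists and likeness. Promoter sequences are RefSeq's on GRCm38.p6, matched by symbol for 2 of 5 members, and gene positions are from GENCODE M21.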

Additional observations from a re-analysis of the deposited data

Results flagged for a closer look

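Sox17 differed between the libraries in opposite directions in the endothelial types. Its log2 ratio of donor over recipient was 0.52 in venous cells and -0.23 in general capillary cells, and both intervals excluded equality. After thinning to 2000 UMIs the venous value was 0.13, with an interval that included equality. The difference between these ratios was not tested.

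Sox11 set endothelial against mesenchymal and epithelial cells in opposite directions, with a log2 ratio of 2.32 among donor cells and -1.38 among recipient cells. The mesenchymal and epithelial cells differ in makeup, with 33 pericytes among 95 cells in the donor library and 490 among 1792 in the recipient library. The difference was not tested.

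In interferon-active general capillary cells over the remaining ones, Sox17 had log2 ratios of 0.15 for donor cells and -0.29 for recipient cells. Sox18 had -0.15 and 0.27. The recipient intervals of both genes included equality after thinning. The differences were not tested.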

How the results depend on the processing

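The log2 ratios of the 5 genes in general capillary cells and aerocytes, in the 2 capillary types against each other, and in endothelium against mesenchymal and epithelial cells moved by less than their counting interval when every barcode was kept or no cell was filtered, although Sox18 for recipient aerocytes over general capillary cells then excluded equality (-0.09 and -0.10). Under the other settings the values below moved by more than their counting interval, and the cause was not tested. Thinning to 2000 UMIs gave, for donor over recipient, Sox11 4.85, Sox7 0.24 (0.03 to 0.44) and Sox17 -0.37 in general capillary cells, and Sox11 2.04 and Sox17 -0.66 in aerocytes. For aerocytes over general capillary cells it gave Sox4 -0.80, Sox7 -2.09 and Sox17 -4.67 in the donor library and Sox11 -2.56 in the recipient library, and for recipient endothelium over mesenchymal and epithelial cells Sox11 -2.50, Sox4 -0.47 and Sox18 8.65. Without any shared barcode, Sox11 was 1.35 for donor over recipient aerocytes, -2.60 for recipient aerocytes over general capillary cells, and 1.58 and -2.61 for donor and recipient endothelium over the other classes, where recipient Sox4 was -0.71.

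Stricter gates gave Sox11 1.08 for donor over recipient aerocytes. For aerocytes over general capillary cells they gave Sox11 -5.50 and Sox17 -4.83 in the donor library, and -2.68 and -5.09 in the recipient library. Leaving out the highest Scrublet scores gave Sox11 1.87 and Sox17 -0.41 for donor over recipient aerocytes, Sox11 -5.57 and Sox17 -4.72 for donor and Sox11 -3.67 for recipient aerocytes over general capillary cells, and Sox11 -2.01 for recipient endothelium over the other classes. The mean of per-cell CPM gave Sox11 -5.51 for donor aerocytes over general capillary cells, and for endothelium over the other classes Sox17 3.11 and Sox18 4.86 in the donor library and Sox11 -2.12 and Sox4 -0.47 in the recipient library. Among the state ratios, venous ratios and capillary levels, not listed one by one here, thinning moved 26 values and left 56 the same. Stricter gates moved 5 and left 78, and leaving out the highest Scrublet scores moved 4 and left 79.

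The next settings were added after seeing the data. Capillary gates at 95% gave, for aerocytes over general capillary cells, Sox17 -4.78 and Sox18 -0.32 in the donor library and Sox17 -5.30 in the recipient library. Leaving out cells with a pericyte marker UMI gave Sox11 3.42, Sox7 0.25 and Sox17 1.57 for donor over recipient aerocytes. For aerocytes over general capillary cells it gave Sox11 -5.81 and Sox17 -4.59 in the donor library, and Sox11 -5.38, Sox7 -2.11 and Sox17 -6.44 in the recipient library. In venous cells the donor over recipient ratio of Sox7 went from 0.23 (0.01 to 0.45) to -0.32 (-0.66 to 0.03), on 83 and 32 cells. Under 6 of 7 alternatives with an interval, this venous ratio included equality. The Sox11 split at full depth, also added, moved 5 of 20 genes.

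Under a minimum of 100 UMIs, the genes past 2-fold numbered 3 of the endothelial factors (7 at 20 UMIs) and 1 SoxC-linked gene (2) in donor over recipient general capillary cells, 0 of the Sox family (1) and 0 SoxC-linked genes (1) in aerocytes, and 4 SoxC-linked genes (8) in recipient aerocytes over general capillary cells. Past 3-fold, they numbered 4 endothelial factors in donor over recipient general capillary cells and 7 SoxF-linked genes (13) in recipient aerocytes over general capillary cells. Of all results, 11 gave no value under an alternative because a group held 0 UMIs. No paired analysis was possible because each group is 1 library. Counts under 10 UMIs, as for Sox11 in recipient venous cells, limit what these ratios can show.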
